A study of Mus musculus with 6 samples.

Results

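The 10 genes described here are the lysozymes Lyz1 and Lyz2 and the membrane proteins Ms4a1, Ms4a2, Ms4a4d, Ms4a6b, Ms4a6c, Ms4a6d, Ms4a7 and Ms4a8a. They were measured by 19 probe sets, out of 45037 probe sets and 18193 genes tested. The members were every probe set whose platform symbol was one of these genes. The families were selected on the measured fold changes between the genotypes, since Lyz2, Lyz1 and Ms4a6d were among the largest rises in Slc26a4-/- stria vascularis, so the values of that comparison are given for the members as a description, with no p-value. Gene expression was measured in stria vascularis, the secretory epithelium of the cochlear lateral wall, of adult 129S6 mice that lack Slc26a4, which encodes the anion exchanger pendrin, and of wild type controls. The Slc26a4-/- group and the Slc26a4+/+ group each held 3 Affymetrix arrays covering the mouse genome. Each array carried amplified RNA pooled from a pair of animals, the tissue was microdissected, and the animals had not been perfused, so that blood remained in the capillaries. Pooled arrays are the replicates, and the spread between them is the spread between pools. The question put to the arrays was which genes change in the stria vascularis of mice without pendrin.

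Lysozymes cleave the peptidoglycan of bacterial cell walls. In the mouse, Lyz2 encodes the M lysozyme of macrophages, monocytes and neutrophils, and Lyz1 the P lysozyme of Paneth cells in the gut. The MS4A proteins span the membrane several times and associate with immune receptors. Ms4a1 encodes CD20 of B cells and Ms4a2 the beta chain of the IgE receptor of mast cells and basophils, whereas transcripts of the Ms4a4, Ms4a6 and Ms4a7 groups are found in macrophages, dendritic cells and other leukocytes.

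Lyz2 and Lyz1 are direct neighbours on chromosome 10, and all MS4A members lie in 1 cluster on chromosome 19, in the gene order of GRCm38.p6. Promoter windows of RefSeq, from 250 bases before to 50 bases after the start of a gene, held 8 of the 10 members in 9 windows, since Ms4a7 had 2. Ms4a1 and Ms4a6d had no window. The windows of Lyz2 and Lyz1 and of Ms4a6c and Ms4a6b, which lie close together, are shown because probe sets named for both genes of each pair rose and each pair is built from related sequence. They are given 5′ to 3′ on the strand of the gene, in GRCm38.p6, and capitals mark AGGAAGT or its reverse complement ACTTCCT. Lyz2 is at chr10:117282223-117282522 on the minus strand, Lyz1 at chr10:117292819-117293118 on the minus strand, Ms4a6c at chr19:11469118-11469417 on the plus strand and Ms4a6b at chr19:11518309-11518608 on the plus strand.
Lyz2: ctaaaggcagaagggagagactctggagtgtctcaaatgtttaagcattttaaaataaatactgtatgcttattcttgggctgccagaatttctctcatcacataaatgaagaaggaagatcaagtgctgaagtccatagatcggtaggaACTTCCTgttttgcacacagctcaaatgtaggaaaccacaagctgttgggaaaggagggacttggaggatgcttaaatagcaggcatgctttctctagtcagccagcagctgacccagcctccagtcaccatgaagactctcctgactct
Lyz1: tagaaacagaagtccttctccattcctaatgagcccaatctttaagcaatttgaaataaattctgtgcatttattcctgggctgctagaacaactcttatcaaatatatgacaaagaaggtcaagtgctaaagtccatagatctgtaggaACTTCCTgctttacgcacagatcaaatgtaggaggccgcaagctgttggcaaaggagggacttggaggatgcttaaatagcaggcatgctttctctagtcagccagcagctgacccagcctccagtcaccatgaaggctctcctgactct
Ms4a6c: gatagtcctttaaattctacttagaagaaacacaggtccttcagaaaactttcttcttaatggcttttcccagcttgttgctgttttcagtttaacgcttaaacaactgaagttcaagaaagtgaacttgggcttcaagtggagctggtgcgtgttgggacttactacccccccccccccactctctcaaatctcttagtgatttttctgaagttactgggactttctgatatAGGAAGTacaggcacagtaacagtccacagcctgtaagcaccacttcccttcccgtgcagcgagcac
Ms4a6b: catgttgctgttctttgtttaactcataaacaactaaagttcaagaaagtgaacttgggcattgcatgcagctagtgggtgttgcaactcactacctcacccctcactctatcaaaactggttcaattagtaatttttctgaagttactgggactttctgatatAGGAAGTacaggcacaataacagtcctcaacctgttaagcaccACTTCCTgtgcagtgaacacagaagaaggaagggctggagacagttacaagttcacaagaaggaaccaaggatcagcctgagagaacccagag
The Lyz2 and Lyz1 windows were identical at 249 of 302 aligned positions (82.45%), and at 99 of their last 100 bases. The Ms4a6c and Ms4a6b windows shared a stretch of 213 aligned positions with 83.1% identity, and it lay at a different distance from the start in each gene. AGGAAGT, an ETS type motif chosen after these sequences were seen, was found on either strand in 4 of the 9 member windows, those shown, and in 9.35% of 32851 promoter windows. These windows are pairs of related sequence, so their matches are not independent of each other. In Lyz2 and Lyz1 the motif began 100 bases before the start, in Ms4a6c 17 bases before it, and in Ms4a6b 86 and 43 bases before it. GAGGAA, the core letters of sites of the myeloid factor PU.1, occurred in 1 member window, that of Ms4a7, and in 28.3% of all windows. A GAGGAA followed by GT would match both of these motifs. The C/EBP type motif TTGCNNAA was found in the windows of Lyz1 and Ms4a4d, against 10.8% of all windows, and the AP-1 motif TGANTCA in those of Ms4a8a and the second of Ms4a7, against 7.81%. TATAAA was in none of the 9 member windows, against 13.6% of all windows. All motifs were searched on both strands, and a missing match says only that these letters are not in the window.

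Lysozyme transcripts were higher in Slc26a4-/- stria vascularis by more than the spread of the arrays. Lyz2 (probe set 1423547_at), the macrophage lysozyme, reached signals of 10473.1, 9717.8 and 10180.0 in Slc26a4-/-, against 572.3, 481.7 and 495.2 in Slc26a4+/+. The lowest Slc26a4-/- array was 17.0-fold above the highest Slc26a4+/+ array. The mean signal was 10123.6 ± 381 in Slc26a4-/- and 516 ± 48.9 in Slc26a4+/+ (SD, n = 3 each), a log2 fold change of 4.30 (SE 0.13), the 16th largest of all probe sets. Signals of every array exceeded background, which was set on each array by olfactory receptor probe sets. In RNA of whole tissue, more cells with a transcript and more transcript per cell cannot be told apart.

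Lyz1 was represented by 3 probe sets, and they did not give the same picture. Probe set 1439426_x_at had signals of 13807.1, 13547.0 and 13181.5 in Slc26a4-/-, against 326.9, 622.8 and 401.8 in Slc26a4+/+, and its log2 fold change was 4.96 (SE 0.21). Probe set 1436996_x_at had 14886.7, 14563.6 and 14153.1 in Slc26a4-/-, against 740.0, 1678.3 and 581.4 in Slc26a4+/+, and its log2 fold change was 4.02 (SE 0.32). On both of them the genotypes were far apart, and replicate 2 was the highest Slc26a4+/+ array, whereas it was the lowest for Lyz2. The third probe set, 1450822_at, had 118.8, 95.9 and 126.7 in Slc26a4-/-, against 105.1, 127.8 and 179.3 in Slc26a4+/+. It lay below background on all 6 arrays, and the genotypes overlapped. The suffix x in the names of the first pair marks probe sets with probes that can bind related transcripts, and Lyz1 and Lyz2 are close relatives. The signals on those probe sets could therefore not be assigned to Lyz1 or to Lyz2.

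Among the MS4A genes, Ms4a7 was the only 1 above background on every array of both genotypes. For Ms4a7, a macrophage transcript, probe set 1424754_at had signals of 2293.2, 2382.2 and 2240.6 in Slc26a4-/-, against 328.5, 447.8 and 503.3 in Slc26a4+/+. All of these exceeded background and the genotypes did not overlap, with a log2 fold change of 2.46 (SE 0.18) and a ratio of mean signals of 5.40. The other Ms4a7 probe set, 1445365_at, was below background on all 6 arrays and overlapped, with 64.5, 54.0 and 23.2 in Slc26a4-/-, against 21.1, 48.3 and 102.0 in Slc26a4+/+. Ms4a6d probe set 1419599_s_at had 783.0, 842.0 and 722.1 in Slc26a4-/-, against 71.8, 53.8 and 31.1 in Slc26a4+/+. Ms4a6d probe set 1419598_at had 421.3, 426.7 and 376.0 in Slc26a4-/-, against 33.0, 35.6 and 4.0 in Slc26a4+/+. Both were above background on every Slc26a4-/- array and on no Slc26a4+/+ array, so that the level in Slc26a4+/+ is only bounded. Measured against the background of the Slc26a4+/+ arrays, the signal in Slc26a4-/- was at least 3.03-fold higher on 1419599_s_at and at least 1.58-fold higher on 1419598_at. The fitted log2 fold changes were 3.98 (SE 0.34) and 4.60 (SE 0.77). That of 1419598_at rested in part on Slc26a4+/+ replicate 3, without which it was 3.57. The third Ms4a6d probe set, 1449539_at, had signals of 1.7, 2.3 and 1.2 in Slc26a4-/-, against 0.6, 3.3 and 1.3 in Slc26a4+/+, far below background.

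Ms4a6b and Ms4a6c lie close to each other in the cluster, and 1 probe set of each rose. Ms4a6b probe set 1418826_at had signals of 602.7, 673.2 and 678.5 in Slc26a4-/-, against 151.9, 221.6 and 197.3 in Slc26a4+/+. Ms4a6c probe set 1450234_at had 870.4, 846.2 and 782.6 in Slc26a4-/-, against 193.9, 240.4 and 282.6 in Slc26a4+/+. The genotypes did not overlap on either, and no Slc26a4+/+ array exceeded background, which gave rises of at least 2.52-fold for Ms4a6b and at least 3.23-fold for Ms4a6c. The fitted log2 fold changes were 1.79 (SE 0.22) for Ms4a6b and 1.82 (SE 0.20) for Ms4a6c. A second probe set of Ms4a6b, 1439956_at, had 141.7, 157.3 and 93.4 in Slc26a4-/-, against 56.9, 55.4 and 76.2 in Slc26a4+/+. These signals did not overlap but were below background throughout, and the probe set did not pass the threshold. A second probe set of Ms4a6c, 1457725_at, had 162.7, 191.7 and 250.3 in Slc26a4-/-, against 172.3, 298.5 and 240.3 in Slc26a4+/+, with 1 array of each genotype above background and full overlap.

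The remaining MS4A members stayed below background on all 6 arrays, and their genotypes overlapped. Ms4a1, the CD20 gene of B cells, had signals of 163.2, 203.2 and 213.6 in Slc26a4-/-, against 147.6, 214.6 and 218.7 in Slc26a4+/+ on probe set 1423226_at, and its other probe set, 1450912_at, stayed between 20.0 and 48.5. Ms4a2, the IgE receptor beta chain, had 67.5, 10.3 and 122.9 in Slc26a4-/-, against 62.1, 105.3 and 108.7 in Slc26a4+/+ on probe set 1421475_at. The second Ms4a2 probe set, 1443264_at, had 11.8, 45.2 and 141.2 in Slc26a4-/-, against 10.6, 20.4 and 82.7 in Slc26a4+/+. Neither gene exceeded this background on any array. With the 90th percentile of the olfactory receptors as background, between 155.5 and 192.9 on the Slc26a4-/- arrays, 1423226_at of Ms4a1 exceeded it on all 3 Slc26a4-/- arrays and on no Slc26a4+/+ array. Ms4a4d probe set 1418990_at had 61.7, 112.5 and 72.4 in Slc26a4-/-, against 62.0, 51.6 and 79.7 in Slc26a4+/+. Ms4a8a probe set 1418797_at had 49.6, 51.0 and 92.9 in Slc26a4-/-, against 42.7, 113.9 and 131.1 in Slc26a4+/+. The fitted fold changes of these genes have no known size, since both genotypes were below background.

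**Figure D1:**
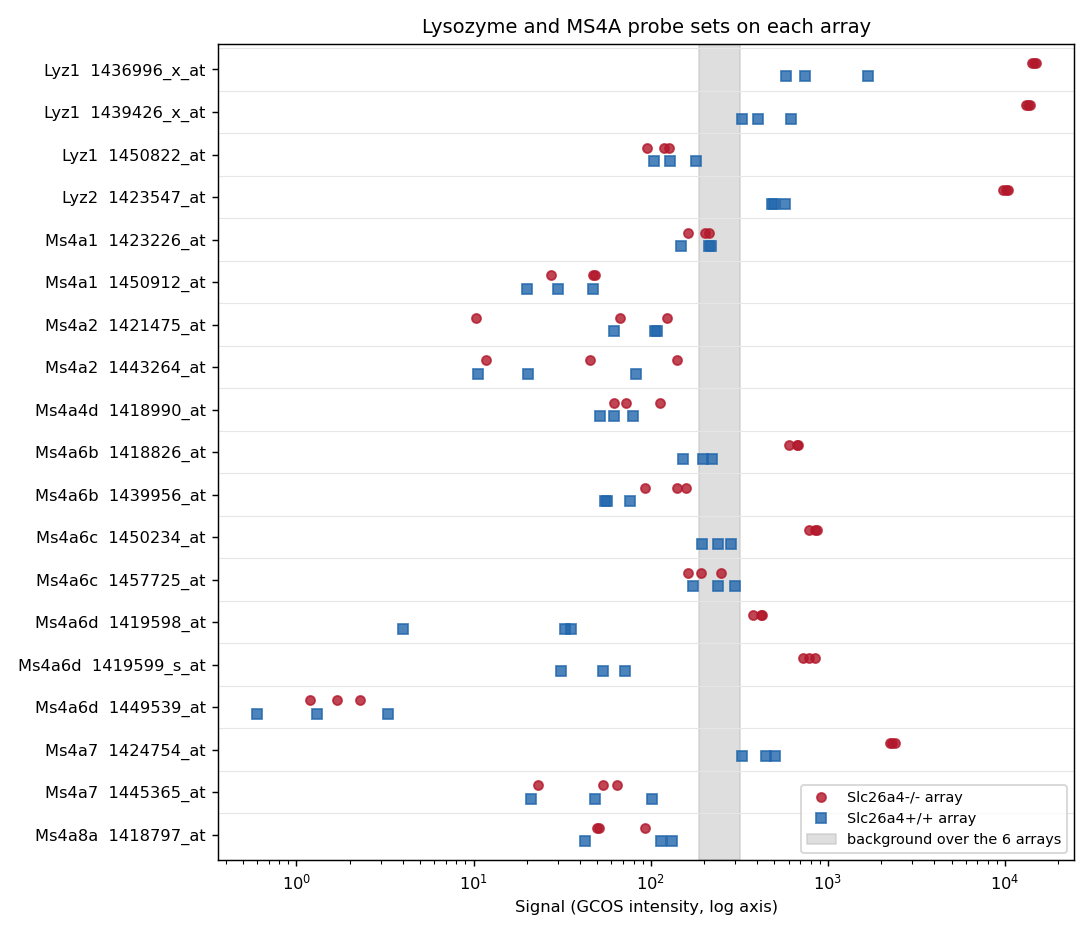
Signal of the 19 lysozyme and MS4A probe sets on each array, on a log axis, with Slc26a4-/- arrays as red circles above Slc26a4+/+ arrays as blue squares and the grey band spanning the background of the 6 arrays. On 8 probe sets named for 6 genes all Slc26a4-/- arrays lie right of the grey band and of all Slc26a4+/+ arrays, and 10 probe sets lie below background on every array.

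Over the 19 probe sets, 8 probe sets named for 6 genes passed an adjusted p of 0.05 (limma, Benjamini-Hochberg over all probe sets) as higher in Slc26a4-/-, against 1.19% of all probe sets. As lower 0 passed, against 0.54%, with 0 lower at an unadjusted p under 0.05 by limma or by the methods' t-test. Lyz1 is among the 6 genes only by its x probe sets, whose signals could not be assigned to Lyz1 or to Lyz2. The groups did not overlap on 9 probe sets, all higher in Slc26a4-/-, against 8.46% of all probe sets with every Slc26a4-/- array above every Slc26a4+/+ array, and none was lower throughout, against 9.4%. Since this comparison chose the families, these counts are a description and nothing is read from them. The median log2 fold change was 0.69 over the members and -0.06 over all probe sets, and 10 probe sets overlapped between genotypes. This member median is the fitted value of Ms4a2 probe set 1443264_at. It rests in part on 10 probe sets below background on all 6 arrays, so it gives no known size. On the 8 probe sets that passed, the replicates of Slc26a4-/- were close, with coefficients of variation between 2.33% and 7.66%, and those of Slc26a4+/+ spread from 9.47% to 72.5%. The methods' t-test was paired by array number here, although the methods describe no pairs for the arrays. By that test 8 passed at an unadjusted p under 0.05 and 0 after adjustment, when 0 of all probe sets passed. With the log2 signal of Xist as a covariate only 2 of the 8 passed, the probe set of Lyz2 and 1439426_x_at of Lyz1. In that fit the log2 fold change was 3.997 (SE 0.66) for 1419599_s_at of Ms4a6d, 3.44 (SE 1.44) for its 1419598_at, 2.22 (SE 0.34) for Ms4a7, 1.69 (SE 0.39) for Ms4a6c, 1.36 (SE 0.38) for Ms4a6b and 2.69 (SE 0.33) for 1436996_x_at of Lyz1, none of which passed. Without the trend of the spread on the signal 5 passed, and Ms4a6b, Ms4a6c and 1419598_at of Ms4a6d did not. The last of these also failed when any single Slc26a4-/- array was left out, which left 7.

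The arrays differed in ways other than pendrin. Xist, the RNA that coats the inactive X, was at 5529.6 to 5862.7 in Slc26a4-/- and 770.6 to 3358.3 in Slc26a4+/+, and the Y-linked Eif2s3y had 3.1 to 3.6 in Slc26a4-/- and 639.9 to 1540.8 in Slc26a4+/+. For the members, genotype and sex of the animals therefore cannot be told apart. The ratio of 3′ to 5′ Gapdh probe sets, a sign of RNA quality, was 3.34 to 3.80 in Slc26a4-/-, against 2.25, 7.19 and 10.53 in Slc26a4+/+, and its part in the members' values was not tested. With replicate 1 as the only Slc26a4+/+ array, a choice made after the data were seen, all 8 probe sets still passed. Slc26a4 itself had signals of 520.2, 716.8 and 618.5 in Slc26a4-/-, against 1353.8, 1262.1 and 793.0 in Slc26a4+/+, with every Slc26a4-/- array below every Slc26a4+/+ array but above background, and which part of the transcript its probes cover was not known here. The 11 genes of the stria vascularis list, such as the potassium channel genes Kcnq1 and Kcne1, were all above background in both genotypes by their brightest probe sets. By these, Kcne1 was the only 1 past the threshold, with a log2 fold change of -1.27 (limma, adjusted p = 0.00237), and 1 of the other probe sets of Esrrb in this list also passed. Over all genes 0.803% were lower at the threshold. The call of Kcne1 was lost in the fit with no trend and in that with Xist, and without Slc26a4+/+ replicate 1 the count in this list was 6.

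In the order of the MS4A cluster on chromosome 19, probe sets of Ms4a7, Ms4a6c, Ms4a6b and Ms4a6d passed as higher, and Ms4a4c, Ms4a4b and Ms4a4d, which lie between them, did not pass the threshold. Ms4a4c had signals of 308.8, 163.1 and 309.3 in Slc26a4-/-, against 86.3, 153.3 and 195.9 in Slc26a4+/+ (log2 fold change 0.86, limma, adjusted p = 0.430), and its arrays overlapped. Ms4a4b, known from T cells, had 86.3, 97.8 and 96.5 in Slc26a4-/-, against 16.8, 13.5 and 65.1 in Slc26a4+/+, below background throughout, so that its fitted log2 fold change of 1.93 gives no known size (limma, adjusted p = 0.254). Among the limma alternatives it passed without Slc26a4+/+ replicate 3 and with array weights. Whether the members of the cluster differed from each other in their change was not tested.

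**Figure D2:**
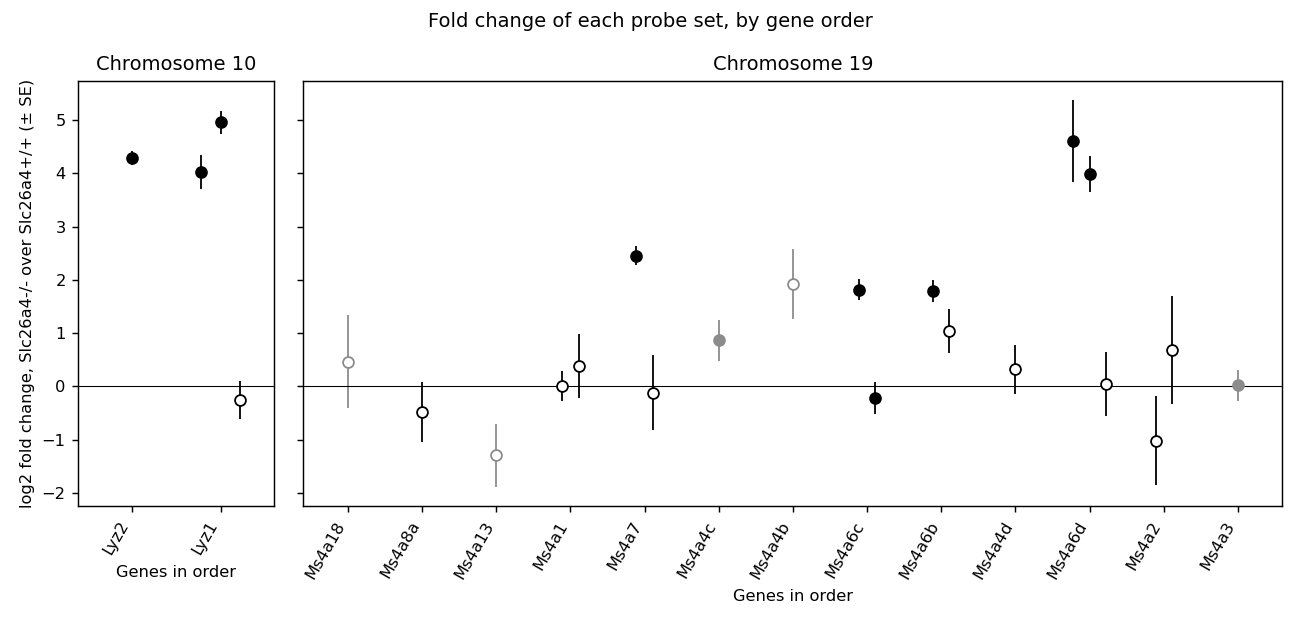
Log2 fold change of Slc26a4-/- over Slc26a4+/+ with its standard error for each probe set, placed by the order of the genes on chromosomes 10 and 19 (black, members; grey, other MS4A genes by their brightest probe set; filled, above background on at least 1 array; open, below background on all arrays). The filled points near or above 2 belong to probe sets named for Lyz2, Lyz1, Ms4a7, Ms4a6c, Ms4a6b and Ms4a6d, and between the last 4 lie Ms4a4c at 0.86, Ms4a4b at 1.93 (open) and Ms4a4d at 0.33 (open).

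The rest of both families was counted as a list of its own, each gene by its brightest probe set. Of 16 other lysozyme and MS4A family genes measured, 0 were higher and 0 lower at the threshold, against 1.88% and 0.803% of all genes, with 1 gene, Ms4a4b, at an unadjusted p under 0.05 by limma and 1 by the methods' t-test. In this list 10 genes lay below background on all arrays, among them the lysozyme-like genes Lyg1, Lyg2, Lyzl1, Lyzl4 and Lyzl6. Ms4a13, also below background throughout, had 9.7, 10.2 and 14.4 in Slc26a4-/-, against 32.0, 24.0 and 27.2 in Slc26a4+/+. Its genotypes did not overlap (limma, adjusted p = 0.435). Tmem176a and Tmem176b, MS4A relatives on another chromosome, were above background on all arrays. Tmem176b had 13502.2, 14108.6 and 14085.9 in Slc26a4-/-, against 11511.7, 15234.2 and 18621.1 in Slc26a4+/+, with overlap and a log2 fold change of -0.09. Spaca3, a lysozyme-like protein of sperm, had 531.0, 622.6 and 598.7 in Slc26a4-/-, against 591.8, 874.4 and 700.6 in Slc26a4+/+, also without a call.

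Receptors and adaptors that work beside MS4A proteins were higher in part. Of 9 measured, 4 were higher in Slc26a4-/- and 0 lower, against 1.88% and 0.803% of all genes. The median log2 fold change was 0.68, against -0.03 over all genes. This median includes fitted values of genes below background. Tyrobp, the adaptor DAP12, had signals of 1493.5, 1807.8 and 1737.9 in Slc26a4-/-, against 245.5, 215.6 and 354.9 in Slc26a4+/+ (log2 fold change 2.65, limma, adjusted p = 0.000276). Clec7a, the glucan receptor dectin-1, had 586.0, 622.8 and 750.7 in Slc26a4-/-, against 250.8, 314.3 and 274.5 in Slc26a4+/+ (log2 fold change 1.22, limma, adjusted p = 0.0134). Fcer1g, the gamma chain of Fc receptors, was at least 1.76-fold higher (limma, adjusted p = 0.0164), and the kinase gene Syk at least 1.31-fold (limma, adjusted p = 0.0272). Syk had 4 probe sets, and none of the others passed. The other chains of the IgE and B cell receptors, Fcer1a, Cd79a and Cd79b, were below background on all arrays, as were Cd40 and Trem2. Tyrobp alone passed when any single Slc26a4-/- array was left out, and the count was 2 without Slc26a4+/+ replicate 2, 3 without replicate 3 of that genotype, and 0 with the Xist covariate.

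Genes that sense or carry pieces of the bacterial wall, the substrate of lysozyme, mostly did not pass. Of 10 measured, 1 was higher and 0 lower, against 1.88% and 0.803% of all genes, and nothing is read from so small a count. The list median of the log2 fold change was 0.26, which includes fitted values of genes below background. Slc15a3, a lysosomal carrier of peptides and muramyl dipeptide, had signals of 355.5, 293.1 and 295.3 in Slc26a4-/-, against 64.6, 67.5 and 12.6 in Slc26a4+/+, a rise of at least 1.21-fold (limma, adjusted p = 0.0408). This call was lost when Slc26a4+/+ replicate 2 or any single Slc26a4-/- array was left out. Slc46a3, a lysosomal transporter, had 346.0, 493.0 and 492.6 in Slc26a4-/-, against 793.2, 602.6 and 699.4 in Slc26a4+/+ (limma, adjusted p = 0.193), and the peptidoglycan binding gene Pglyrp1 was below background throughout. Of 8 myeloid transcription factors measured, 0 passed in either direction, against the same shares of all genes. At an unadjusted p under 0.05 there were 3 by limma and 2 by the methods' t-test. The lowest p-values were those of Irf8 (log2 fold change 0.94, limma, adjusted p = 0.146), of Spi1 and of Cebpa. Spi1, which encodes PU.1, had a log2 fold change of 0.76 (limma, adjusted p = 0.275). Cebpa was below background throughout, so that its fitted log2 fold change of 1.01 gives no known size (limma, adjusted p = 0.362). Irf8 and Spi1 were higher on every Slc26a4-/- array without reaching the threshold, at 404.8, 425.6 and 544.1 in Slc26a4-/- against 189.1, 211.0 and 335.6 in Slc26a4+/+ for Irf8. Maf was lower on every Slc26a4-/- array, with 3531.7, 3750.0 and 3346.7, against 5405.1, 3774.8 and 4213.1 in Slc26a4+/+ (log2 fold change -0.32, limma, adjusted p = 0.479). Of all probe sets, 8.46% were higher and 9.4% lower on every Slc26a4-/- array. Without Slc26a4+/+ replicate 3, Irf8 passed, and so did Tlr2, a receptor for bacterial lipoproteins, in the wall list, where 2 genes then passed.

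Markers of macrophages were higher in part. Of 12 measured, 5 were higher in Slc26a4-/- and 0 lower, against 1.88% and 0.803% of all genes. The median log2 fold change was 1.00, which includes fitted values of genes below background. The summed signal of the list was 20690.0 to 21385.0 in Slc26a4-/- and 5002.9 to 7092.6 in Slc26a4+/+. Lgals3, the galectin known as Mac-2, was at least 14.1-fold higher (limma, adjusted p = 1.2e-05), and Mpeg1, a pore-forming protein of macrophages, had a log2 fold change of 3.27 (limma, adjusted p = 3.1e-05). Cd68, a lysosomal protein of macrophages, was at least 5.20-fold higher (limma, adjusted p = 0.000171), and Ptprc, which encodes CD45 of leukocytes, had a log2 fold change of 2.09 (limma, adjusted p = 0.000947). The other probe set of Ptprc did not pass. Aif1 was at least 1.24-fold higher (limma, adjusted p = 0.0306), a call lost when any single Slc26a4-/- array was left out, with 4 genes then past the threshold, or Slc26a4+/+ replicate 2, with 5 then past it because Adgre1 was added. Adgre1, which encodes F4/80, and Csf1r, the receptor of the macrophage growth factor CSF1, were not past the threshold by their brightest probe sets (limma, adjusted p = 0.0513 and 0.0501), though 1 of the other probe sets of Csf1r passed. Both passed without Slc26a4+/+ replicate 1, and Csf1r and Mrc1 without replicate 3, a count of 7 in each case. With the Xist covariate 2 passed, Lgals3 and Mpeg1. Itgam, Cd163 and Fcgr1 were below background on all arrays. The part of the macrophage markers in the values of Lyz2, Ms4a7 and the Ms4a6 genes was not tested.

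Other cells that carry lysozymes or MS4A proteins were looked for in the same way. Over all genes 1.88% were higher and 0.803% lower at the threshold, so nothing is read from counts of 0 in lists this short. Of 11 neutrophil genes measured 9 were below background on all arrays, Mpo, Elane, S100a8 and Camp among them, and Lcn2 was higher, with 595.0, 394.1 and 584.1 in Slc26a4-/-, against 4.6, 6.2 and 19.5 in Slc26a4+/+ (at least 2.00-fold, limma, adjusted p = 0.00122). Lcn2, an iron-siderophore binding protein of neutrophil granules, is also made by epithelia, and it did not pass with the Xist covariate. Of 7 Paneth cell genes, 5 were below background and 0 passed, and of 8 B cell genes 6 were below background and 0 passed, with 2 at an unadjusted p under 0.05 by limma and 1 by the methods' t-test. In the B cell list Cd22 had the lowest p, with 550.9, 455.1 and 497.4 in Slc26a4-/-, against 142.5, 194.5 and 382.5 in Slc26a4+/+ (limma, adjusted p = 0.144), and it passed without Slc26a4+/+ replicate 3. Of 9 mast cell genes 7 were below background and 0 passed, and of 6 T cell genes 5 were below background and 0 passed. In the Paneth, mast and T cell lists 0 genes were at an unadjusted p under 0.05 by limma or by the methods' t-test. Genes of spiral ligament fibrocytes, the tissue beside the stria, were higher in Slc26a4-/- for 4 of 8 by their brightest probe sets (Otos, Dcn, Ucma and Chad), with summed signals of 29907 to 31890 in Slc26a4-/- and 21389 to 24360 in Slc26a4+/+, and the part of adjoining tissue in the members' values was not tested. In the fit with no trend and in that with Xist only Chad of these 4 passed. The other probe set of Dcn and that of Ucma did not pass in the main fit. For Car3 of this list, 3 other probe sets passed, though the brightest did not.

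**Figure D3:**
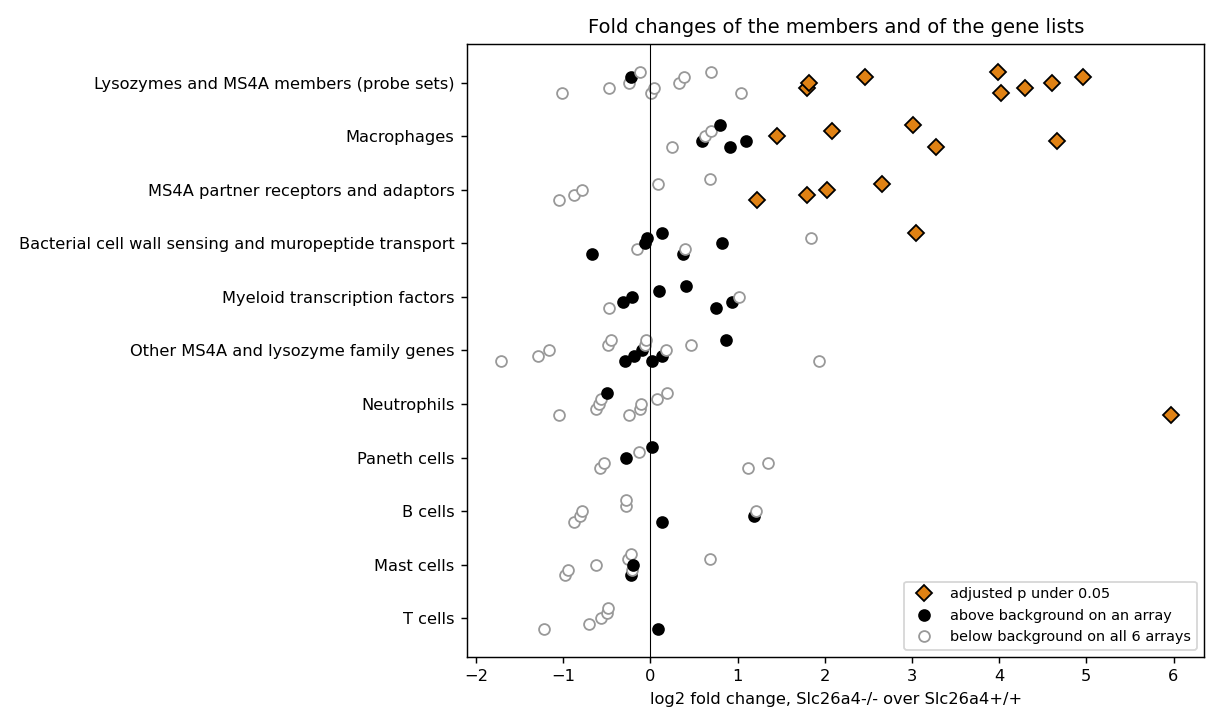
Log2 fold change of Slc26a4-/- over Slc26a4+/+ for the 19 member probe sets and for the genes of 10 lists, with orange diamonds for an adjusted p under 0.05, black circles for other genes above background on an array and open circles for genes below background on all 6 arrays. Calls shown lie among the members, the macrophage genes and the partner receptors, with 1 each in the wall list and the neutrophil list, and all shown are higher in Slc26a4-/-. The stria vascularis list, where Kcne1 was lower, and the spiral ligament list, where 4 genes were higher, are not shown.

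Patterns over the 6 arrays were compared by the root mean square distance of centred log2 signals, among 14040 probe sets. These had a mean signal of at least 300 in Slc26a4-/-. Closest to Lyz2 were Crhbp at 0.20, Lgals3 at 0.31, Ttr at 0.33, Clca3a2 at 0.37 and Chad at 0.42. Crhbp binds corticotropin-releasing hormone, Ttr carries thyroid hormone and Chad is a cartilage matrix protein. Crhbp had signals of 4063.0, 4685.0 and 3939.9 in Slc26a4-/-, against 317.6, 222.7 and 263.8 in Slc26a4+/+. Nearest to Ms4a6d probe set 1419599_s_at were the prohormone-processing enzyme gene Cpe at 0.23, the cartilage glycoprotein gene Cnmd at 0.31, the estrogen sulfotransferase gene Sult1e1 at 0.33, Crhbp at 0.33 and Chad at 0.33. Cpe had 8689.1, 7929.0 and 9097.3 in Slc26a4-/-, against 777.9, 445.3 and 249.7 in Slc26a4+/+. The Slc26a4+/+ signals of this Ms4a6d probe set were below background, so likeness within that genotype carries no pattern. The same holds for Lgals3, Ttr, Clca3a2, Chad and Sult1e1, whose Slc26a4+/+ signals were all below background. Lgals3 was the only gene of the macrophage list among these genes, which are placed by the size of the genotype difference over 6 arrays.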

How the data were processed

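Stria vascularis RNA of 3 Slc26a4-/- and 3 Slc26a4+/+ arrays was grouped by the sample labels. The authors deposited 1 signal intensity per probe set and array on a linear scale, made with GCOS per the labels, whose version and scaling target were not given in the sources used. Of 45101 probe sets 64 Affymetrix controls were left out, and of the other 45037, 34945 had 1 gene symbol in the platform annotation, 932 several and 9160 none in the table used. All 10 members matched a gene number in GRCm38.p6. Signals under 1 (172 values) were raised to 1. The log2 signals, not normalized again, were fitted with lmFit and eBayes (trend on) of limma 3.58.1 under R 4.3.3, and tests were two-sided, with Benjamini-Hochberg adjustment over all probe sets and a threshold of 0.05. The script was tested on simulated data.

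Olfactory receptor genes, 44 probe sets, set the background of an array at their 95th percentile, between 187.1 and 319.2, and 35.69% to 43.34% of probe sets exceeded it. A fold against a genotype below background on all its arrays was taken against that background as "at least". Depth has no meaning for arrays, and their number limits the precision. A gene was represented by its brightest probe set (highest mean log2 signal). The rule named all member probe sets and, in each list, the genes past the threshold or with the 3 smallest p-values. It also named the 5 genes nearest to Lyz2 and to Ms4a6d with a mean signal of at least 300 in Slc26a4-/-, and defining markers below background. In the neutrophil, Paneth cell, mast cell, T cell and stria vascularis lists, not all genes with the 3 smallest p-values are named here. Tmem176b, Spaca3, Tlr2, Maf, Adgre1, Csf1r and Mrc1 fell outside this rule and were named after their values were seen. The members and lists were chosen with earlier results of these data known. Listed genes without a probe set of that symbol in the annotation were not analysed here. Promoter sequences came from RefSeq tables of GRCm38.p6 and were aligned with Biopython 1.88. Alternatives were other pseudocounts, scalings, filters, spread models, array weights, the replicate block, Xist as a covariate, each array left out, the methods' t-test and the 1.3-fold rule.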

Additional observations from a re-analysis of the deposited data

How the results depend on the processing

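The count of 8 member probe sets held with pseudocounts of 16 and 64, 75th percentile and quantile scaling, array weights and without any 1 Slc26a4+/+ array, and was 7 with centring on the median or a mean signal of at least 300. It was 5 without the trend, 2 with Xist as a covariate and 0 with the methods' t-test after Benjamini-Hochberg adjustment, and it lay between 7 and 8 when single arrays were left out. The cause of these changes was not tested, apart from the filter, which did not test 1419598_at. Of 311 alternative log2 fold changes of members, 280 moved by less than the spread of replicates, 31 by more and 0 of the called ones changed sign. That of 1419598_at of Ms4a6d was 2.44 with a pseudocount of 64, and that of 1436996_x_at of Lyz1 was 2.69 with the Xist covariate. On the 90th and 99th percentile of olfactory receptors, 10 and 8 member probe sets exceeded background on at least 2 arrays of a genotype, against 8. The median of all probe sets moved from -0.06 to 0.02 with centring on the median.

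All 778 calls became 448 with centring on the median, with 80.13% higher against 68.8%. They became 114 without the trend, 4084 with array weights, 27 with the Xist covariate, 1304 with Slc26a4+/+ replicate 1 as the only Slc26a4+/+ array, 219 to 1714 with single arrays left out, 3980 by the methods' t-test at an unadjusted p of 0.05 and 0 after adjustment, and 19497 by the 1.3-fold rule. All 16 listed genes called became 7 without the trend, 32 with array weights, 3 with Xist, 0 by the adjusted t-test and 66 by the fold rule, and 11 to 23 with single arrays left out.

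For the other family genes, 0 in the report, array weights, replicate 1 alone and the unadjusted t-test gave 1, the fold rule 8, and leaving out arrays 0 to 1. For wall sensing and transport, 1 in the report, the count was 0 with centring on the median, quantile scaling, a mean signal of 300, no trend, Xist and both forms of the t-test, 2 with array weights, 4 with replicate 1 alone, 5 by the fold rule and 0 to 2 with arrays left out. For MS4A partners, 4 in the report, it was 2 with a mean signal of 300, 1 without the trend, 0 with Xist and the adjusted t-test, 7 by the fold rule and 1 to 4 with arrays left out. For transcription factors, 0 in the report, it was 3 with array weights, 2 with replicate 1 alone, 2 by the unadjusted t-test, 4 by the fold rule, 1 with the mean over all probe sets of a gene and 0 to 1 with arrays left out. For macrophages, 5 in the report, it was 10 with array weights, 2 with Xist, 0 by the adjusted t-test, 11 by the fold rule and 4 to 7 with arrays left out.

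The labels number the arrays of both genotypes from 1 to 3. The deviations of arrays with the same number correlated at 0.09, 0.03 and 0.03, and not every array correlated best with its own number. With 3 arrays per genotype, this check cannot decide whether the numbers pair the samples. The methods' t-test used these numbers as pairs. With the replicate block, 832 probe sets passed, 8 of them members, and the listed genes called were 17.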
